A study of Mus musculus with 4 samples.

Results

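Serine proteases of the mouse testis were followed through germ cell stages and between genotypes. The 7 members were the genes PRSS42, PRSS43, PRSS44, PRSS46, PRSS50, PRSS21 and PRSS55, chosen by name among the 25824 gene symbols listed in the count tables. Testes of WT mice (Ctcf wt/wt) and Ctcf-cKO mice (Stra8-iCre-Ctcf f/Δ) were dissociated and single cells were barcoded in ddSEQ droplets for 3′ RNA sequencing. All 4 mice were 15 weeks old and are labelled with the background strain C56BL/6J, 2 per genotype (WT replicates 1 and 2, Ctcf-cKO replicates 1 and 3), and each mouse gave 1 library. CTCF is the zinc finger protein that anchors chromatin loops. The Cre is driven by Stra8, which is switched on in germ cells around the start of meiosis. The somatic cells of the Ctcf-cKO testis are thus not the target of this Cre. The Ctcf-cKO genotype also carries a Δ allele that the WT genotype lacks, so somatic cells differ in genotype between the groups too. The study's methods list WT littermates with floxed alleles as well, and pooled filtrates of 2 tubes for the Ctcf-cKO cell suspension.

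Trypsin-like serine proteases cut proteins after lysine or arginine, and many of those made in the testis are fixed to membranes of germ cells or sperm by a lipid (GPI) anchor or a hydrophobic tail. In culture, PRSS42 and PRSS43 are needed for spermatocytes to go through meiosis. PRSS21, also called testisin, is a GPI-anchored protease of spermatids and sperm that takes part in sperm maturation, PRSS55 is a GPI-anchored sperm protein needed for sperm to migrate into the oviduct and for processing of the adhesion protein ADAM3, and PRSS50 (TSP50) carries a threonine in place of the catalytic serine. PRSS44 and PRSS46 are further members that lie in the same gene cluster as PRSS42, PRSS43 and PRSS50.

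Of the 7 members, 5 stood in 1 row of genes on chromosome 9, all on the + strand, within 66.5 kb (GRCm38). PRSS42 (chr9:110798166-110803754, 5 exons) came first and was followed by PRSS44 (chr9:110813994-110824523, 6 exons), PRSS43 (chr9:110826690-110831839, 6 exons), PRSS45 (chr9:110834588-110841313, 6 exons), which was not among the members, PRSS46 (chr9:110844506-110856522, 5 exons) and PRSS50 (chr9:110857967-110864629, 5 exons). PRSS21 (chr17:23868056-23873114, + strand, 6 exons) and PRSS55 (chr14:64075438-64090162, - strand, 5 exons) lay elsewhere. The longest run of identical bases between the longest transcripts of any pair of these 8 genes was 24 bases, between PRSS43 and PRSS45. PRSS55 shared 3929 bases with PRSS51 on the opposite strand, which had 229 to 456 counts per library, and reads of the overlap cannot be told apart where the counting did not use strand.

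RefSeq promoters (GRCm38.p6, 250 bases before to 50 after the start, written along the + strand, 5′ to 3′) were at hand for 4 of the 7 members and are shown because 3 of these 4 genes passed the test between genotypes and the fourth, PRSS50, lies beside PRSS46. Capitals mark matches on either strand to the letters searched, which were TGACGTCA and TGACG (cAMP response element), TAACTG or TAACGG (MYB), AGGGGGCGC (a stretch of the CTCF consensus), GGCAAC (an arm of the RFX element) and CCAAT.
PRSS42, chr9:110797935-110798234: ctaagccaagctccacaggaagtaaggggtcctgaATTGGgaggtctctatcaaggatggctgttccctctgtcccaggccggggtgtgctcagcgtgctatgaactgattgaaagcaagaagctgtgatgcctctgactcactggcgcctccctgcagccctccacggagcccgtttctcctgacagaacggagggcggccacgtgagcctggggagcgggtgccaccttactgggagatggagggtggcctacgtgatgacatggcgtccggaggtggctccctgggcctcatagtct
PRSS46, chr9:110844256-110844555: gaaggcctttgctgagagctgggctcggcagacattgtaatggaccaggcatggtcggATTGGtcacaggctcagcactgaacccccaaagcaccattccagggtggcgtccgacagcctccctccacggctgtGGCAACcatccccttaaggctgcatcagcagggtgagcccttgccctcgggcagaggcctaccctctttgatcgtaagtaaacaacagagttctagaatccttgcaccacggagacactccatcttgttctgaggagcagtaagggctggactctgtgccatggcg
PRSS50, chr9:110857714-110858013: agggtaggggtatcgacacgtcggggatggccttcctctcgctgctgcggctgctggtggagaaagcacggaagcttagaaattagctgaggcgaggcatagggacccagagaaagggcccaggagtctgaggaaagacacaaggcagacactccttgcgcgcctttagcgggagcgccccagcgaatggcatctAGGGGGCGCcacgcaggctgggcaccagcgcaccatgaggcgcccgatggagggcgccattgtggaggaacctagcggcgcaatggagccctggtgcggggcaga
PRSS21, chr17:23867822-23868121: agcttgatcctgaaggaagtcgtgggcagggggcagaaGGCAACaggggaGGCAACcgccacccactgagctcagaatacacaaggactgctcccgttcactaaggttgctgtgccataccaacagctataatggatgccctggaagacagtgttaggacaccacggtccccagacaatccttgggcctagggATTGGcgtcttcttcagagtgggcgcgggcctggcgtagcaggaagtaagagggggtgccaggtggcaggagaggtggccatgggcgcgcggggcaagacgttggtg
The RFX arm occurred at 212 and 200 bases before the start of PRSS21 and at 116 bases before that of PRSS46, and 12.5% of the 32851 promoters of the table held it. A CCAAT box on the opposite strand was read in the promoters of PRSS42, PRSS46 and PRSS21, as in 37.4% of all promoters. The CTCF stretch was read in the promoter of PRSS50 alone among the 4, at 55 bases before the start, and 1.25% of all promoters held it. Neither form of the cAMP response element nor the MYB letters were read in these 4 windows, against 1.79%, 20.8% and 12.6% of all promoters.

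The libraries held 6701235 and 4859455 counts (WT replicates 1 and 2) and 2652665 and 1593546 counts (Ctcf-cKO replicates 1 and 3), in 5603 to 6474 barcodes each. Barcodes with under 200 genes carried 1.57% and 12.1% of the WT counts and 40.8% and 46.9% of the Ctcf-cKO counts. All barcodes outside the cells used for classes together carried 71.0% and 45.2% of the WT counts and 43.2% and 47.9% of the Ctcf-cKO counts, and these groups overlapped. Pairs of libraries shared 723 to 1310 barcodes, and 1 barcode was among the cells used of more than 1 library. CTCF itself had 110 and 49 counts in the WT libraries (16.4 and 10.1 CPM, counts per 1000000 counts of the library) and 4 and 7 in the Ctcf-cKO libraries (1.51 and 4.39 CPM), over all cell types and with no information on whether the counted 3′ ends lie in the deleted part. The summed level of 26 spermatocyte markers was 3204 to 3301 CPM in WT and 1918 to 2000 CPM in Ctcf-cKO, with 0 to 2 of them at 0 in a library, and that of 26 round spermatid markers was 8865 to 9615 against 5409 to 5567 CPM, with none at 0. The 15 Leydig cell markers summed to 205 to 429 CPM in WT and 4171 to 4627 CPM in Ctcf-cKO, and those of Sertoli cells, macrophages and red blood cells were also higher in both Ctcf-cKO libraries.

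Summed over all barcodes of each library, PRSS42, PRSS46 and PRSS21 were lower in Ctcf-cKO testes, each to under 0.5 of the WT level, and PRSS55 was the member with a higher level in both Ctcf-cKO libraries. Thus 3 of 7 members passed the test with a lower level (edgeR quasi-likelihood test, Benjamini-Hochberg adjusted p under 0.05 over 14552 genes), where 10.1% of all genes tested did. With DESeq2 2 of them passed, PRSS42 missing the threshold, and without either Ctcf-cKO library none did with edgeR. None passed with a higher level, with edgeR or DESeq2, where 18.4% of all genes did with edgeR, and PRSS55 was the 1 member with a higher level at an unadjusted p under 0.05 (0.0285). The median log2 fold change of the 7 was -1.08, against -0.04 over all genes tested. Levels of 5 members were lower in both Ctcf-cKO libraries than in both WT libraries, as for 35.8% of all genes, and that of 1 member was higher, as for 32.3%.

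**Figure D1:**
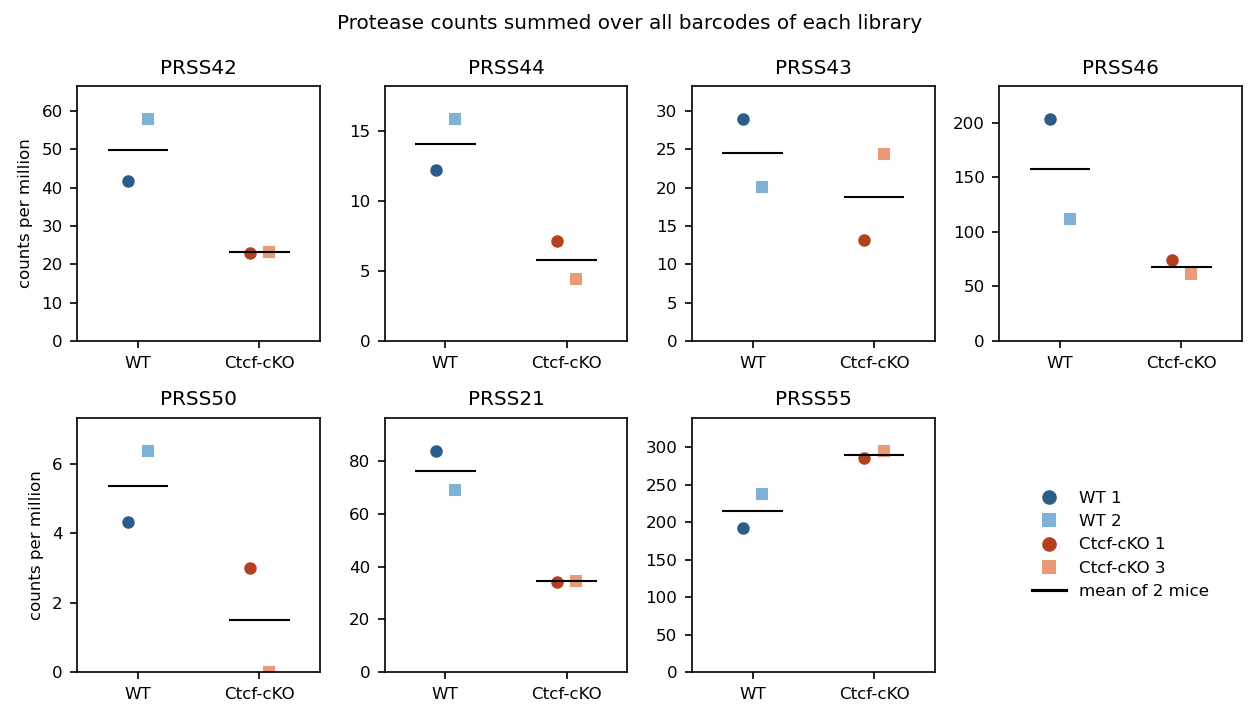
CPM of each protease, summed over all barcodes of a library (y axes start at 0 and differ between panels), with 1 point per mouse and the mean of 2 mice as a line. The Ctcf-cKO points lie below both WT points for PRSS42, PRSS44, PRSS46, PRSS50 and PRSS21, above them for PRSS55, and between or below them for PRSS43.

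PRSS42 had 279 and 281 counts in the WT libraries (41.6 and 57.8 CPM) and 61 and 37 in the Ctcf-cKO libraries (23.0 and 23.2 CPM). Both Ctcf-cKO libraries were low and alike, and the groups did not overlap. The means were 49.7 ± 11.4 CPM in WT and 23.1 ± 0.158 CPM in Ctcf-cKO (SD, n = 2 mice each), a log2 fold change of -1.04 (SE 0.33, edgeR adjusted p = 0.0334). With the DESeq2 Wald test its adjusted p was 0.0514.

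PRSS46 had 1362 and 543 counts in WT (203 and 112 CPM), against 197 and 98 in Ctcf-cKO (74.3 and 61.5 CPM). The WT libraries differed from each other by more than the Ctcf-cKO libraries did, and all WT values were above all Ctcf-cKO values. Its log2 fold change was -1.14 (SE 0.28, edgeR adjusted p = 0.0106), a mean of 157 ± 64.7 CPM in WT against 67.9 ± 9.03 CPM in Ctcf-cKO (SD, n = 2 mice each).

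PRSS21 had 561 and 334 counts in WT (83.7 and 68.7 CPM) and 91 and 55 in Ctcf-cKO (34.3 and 34.5 CPM). The pair of Ctcf-cKO values lay close together, well below both WT values. The log2 fold change was -1.08 (SE 0.27, edgeR adjusted p = 0.0119).

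PRSS55 went the other way, with 1292 and 1157 counts in WT (193 and 238 CPM) and 757 and 471 in Ctcf-cKO (285 and 296 CPM). The groups did not overlap, and the log2 fold change of 0.49 (SE 0.20) missed the threshold (edgeR adjusted p = 0.0829). Its 95% interval ran from 0.06 to 0.92.

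The other members of the locus had fewer counts. PRSS44 had 82 and 77 counts in WT (12.2 and 15.8 CPM) and 19 and 7 in Ctcf-cKO (7.16 and 4.39 CPM), with no overlap and a log2 fold change of -1.18 (SE 0.53, edgeR adjusted p = 0.120). PRSS43 had 194 and 98 counts in WT (28.9 and 20.2 CPM) and 35 and 39 in Ctcf-cKO (13.2 and 24.5 CPM). Its groups overlapped, since Ctcf-cKO replicate 3 lay between the WT libraries, and the log2 fold change of -0.35 had a 95% interval from -1.24 to 0.55 (edgeR adjusted p = 0.569). PRSS50 had 29 and 31 counts in WT (4.33 and 6.38 CPM), 8 counts in Ctcf-cKO replicate 1 (3.02 CPM) and none in Ctcf-cKO replicate 3, where 0 counts allow up to 1.88 CPM. These few counts came from 8, 11, 3 and 0 barcodes, and the log2 fold change of -1.55 had a 95% interval from -3.73 to 0.63 (edgeR adjusted p = 0.273).

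Along the locus the genotype difference was not even. The log2 fold changes ran from -1.04 for PRSS42, -1.18 for PRSS44 and -0.35 for PRSS43 to 0.10 for PRSS45, and then to -1.14 for PRSS46 and -1.55 for PRSS50. PRSS45, which lies between PRSS43 and PRSS46, had 475 and 210 counts in WT (70.9 and 43.2 CPM) and 137 and 105 in Ctcf-cKO (51.6 and 65.9 CPM), and its groups overlapped (95% interval -0.54 to 0.75, edgeR adjusted p = 0.826). Whether the neighbours differ from each other in their response was not tested. Of 8 other protein-coding genes within 100 kb of the locus, CCDC12 had enough counts for the test (34, 37, 7 and 2 counts, log2 fold change -1.55, edgeR adjusted p = 0.171), and the rest had at most 12 counts in a library.

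**Figure D2:**
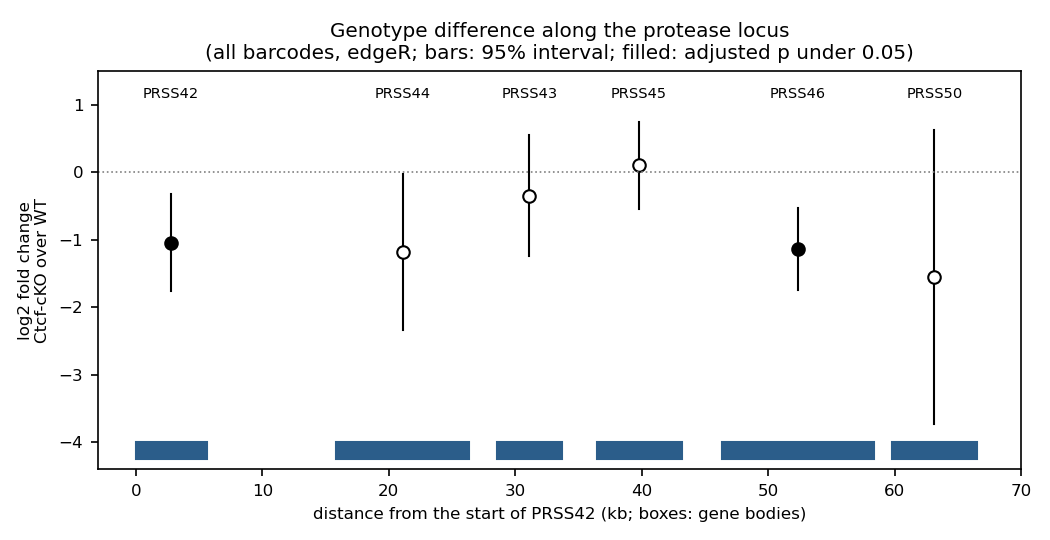
Log2 fold change of Ctcf-cKO over WT (y axis, edgeR on sums over all barcodes, bars: 95% interval) for the 6 proteases of the locus by distance from the start of PRSS42 (x axis, kb). PRSS42 and PRSS46 (filled) passed the threshold with -1.04 and -1.14, and PRSS45 in the middle of the row lies at 0.10.

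These sums hold all cells of a testis suspension and the RNA outside cells, so fewer cells of a type and less RNA per cell cannot be told apart. Markers of spermatocytes and round spermatids moved with the proteases: 12 of 25 and 21 of 26 tested were lower in Ctcf-cKO and none was higher (edgeR, same fit). Of 23 elongating spermatid markers, 1 was higher and none lower. Spermatogonia markers went the other way, with 3 of 8 tested higher and none lower. Their sum was 91.3 and 128 CPM in WT and 197 and 160 CPM in Ctcf-cKO. Per 1000 counts of the spermatocyte markers, PRSS42 stood at 12.6 and 18.05 in WT libraries against 11.5 and 12.1 in Ctcf-cKO ones. PRSS46 had 61.6 and 34.9 against 37.1 and 32.1, so that its groups overlapped on this scale. PRSS21 had 25.4 and 21.5 against 17.15 and 17.99. On the same scale the groups of the 3 proteases were closer than in CPM, and PRSS55 was further apart, at 58.4 and 74.3 in the WT libraries against 143 and 154. Per 1000 counts of the 23 elongating spermatid markers, the stage where PRSS55 was highest, it stood at 2.28 and 2.02 in WT against 2.41 and 2.44 in Ctcf-cKO, close together though not overlapping. The part of the stage markers in the protease differences was not tested.

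**Figure D3:**
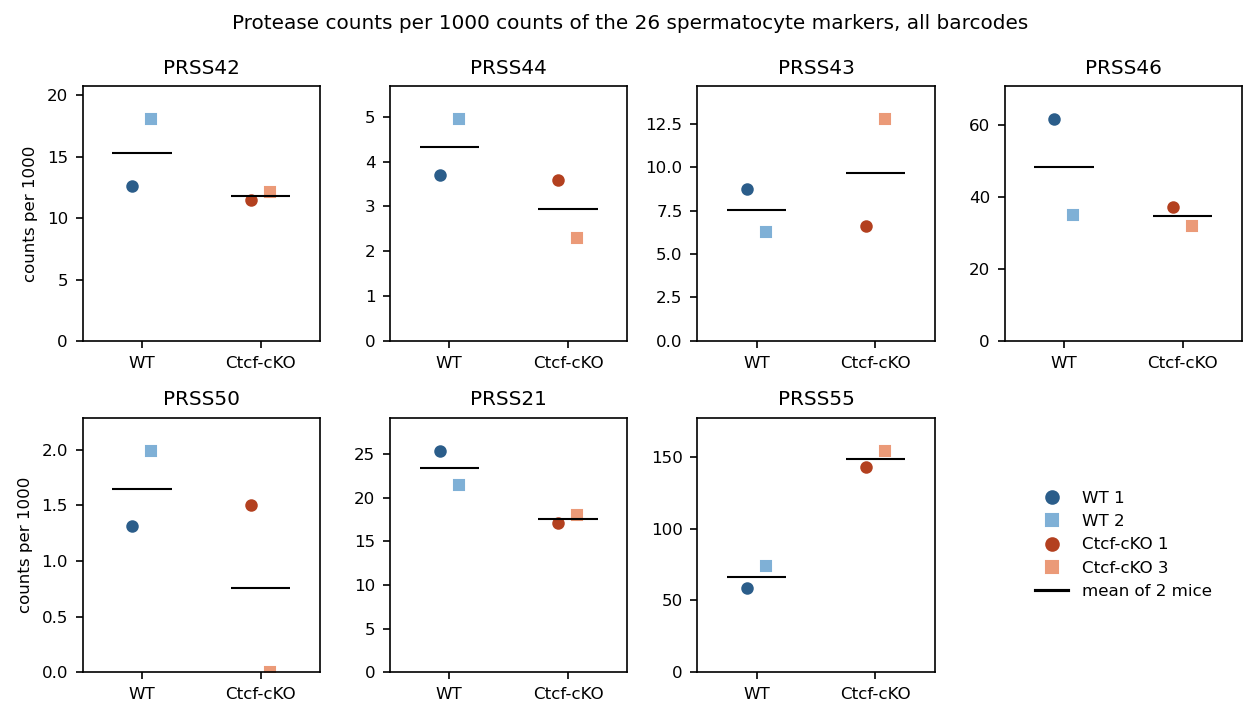
Counts of each protease per 1000 counts of the 26 spermatocyte markers in the same library (y axes start at 0 and differ between panels), with 1 point per mouse and the mean of 2 mice as a line. The Ctcf-cKO points reach the range of the WT points for PRSS43, PRSS46 and PRSS50, lie below for PRSS42, PRSS44 and PRSS21, and lie above for PRSS55 (143 and 154 against 58.4 and 74.3).

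Library sizes were also taken from the germ cell markers alone, of which the elongating spermatid list made up 86.7% to 94.3% in each library, so that this scaling does not follow the spermatocyte or round spermatid markers. On it, PRSS42, PRSS46 and PRSS21 kept their calls (log2 fold changes -1.27, -1.46 and -1.36, edgeR adjusted p = 0.0415, 0.0109 and 0.0228), while the median of all genes moved from -0.04 to -0.31. PRSS45 turned to -0.21 on that scale and PRSS55 stayed positive at 0.26. Without either Ctcf-cKO library the log2 fold changes of PRSS42, PRSS46 and PRSS21 were -1.30 to -1.02 and their edgeR adjusted p was 0.0729 to 0.154, without WT replicate 1 that of PRSS46 was 0.0620 (log2 fold change -0.71), and without WT replicate 2 that of PRSS42 was 0.141 (log2 fold change -0.79). PRSS21 kept its call without either WT library (edgeR adjusted p = 0.0350 and 0.0044), as did PRSS42 without WT replicate 1 (0.0135) and PRSS46 without WT replicate 2 (1.42e-05).

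Much of the protease RNA was counted outside the cells used for classes. In those other barcodes PRSS42 stood at 51.1 and 67.8 CPM in WT and 23.6 and 28.8 CPM in Ctcf-cKO, PRSS46 at 237 and 94.6 against 65.4 and 82.5 CPM, and PRSS21 at 107 and 69.1 against 26.2 and 19.6 CPM. PRSS55 stood there at 151 and 223 CPM in WT and 313 and 281 CPM in Ctcf-cKO. The order of the groups was that of the whole libraries for these 4 genes. In barcodes with 200 to 7000 genes alone, PRSS46 passed the test, PRSS42 and PRSS21 did not (log2 fold changes -1.04 and -0.80, edgeR adjusted p = 0.0859 and 0.0900).

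To place the proteases in stages, 862 cells were clustered without any PRSS gene among the variable genes. Of these, 70 were spermatocyte-like (6 and 35 WT cells, 17 and 12 Ctcf-cKO cells), 269 round spermatid-like (18 and 172, 50 and 29) and 137 elongating spermatid-like (36 and 28, 38 and 35). Another 184 cells, called somatic-like, were Leydig-like, macrophage-like or peritubular-like, and 202 cells stayed unnamed. The round spermatid-like class joined 3 clusters: 103 of 172 cells of WT replicate 2 lay in cluster 1, 13 of 18 of WT replicate 1 in cluster 5 and 21 of 29 of Ctcf-cKO replicate 3 in cluster 7. Markers of red blood cells (3 of 5) were also higher in the elongating spermatid-like cluster.

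By mean CPM over the 4 mice, 5 of the 7 proteases were highest in spermatocyte-like cells (PRSS42, PRSS43, PRSS44, PRSS50 and PRSS21), PRSS46 in round spermatid-like cells and PRSS55 in elongating spermatid-like cells. The order is a description with no test, because the classes were made from the same cells. The highest class was the same for all 7 with the number of barcodes the study states, and with free RNA subtracted. With the former, the lower pair of classes changed places for PRSS46 (47.1 CPM in spermatocyte-like and 53.3 CPM in elongating spermatid-like cells).

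**Figure D4:**
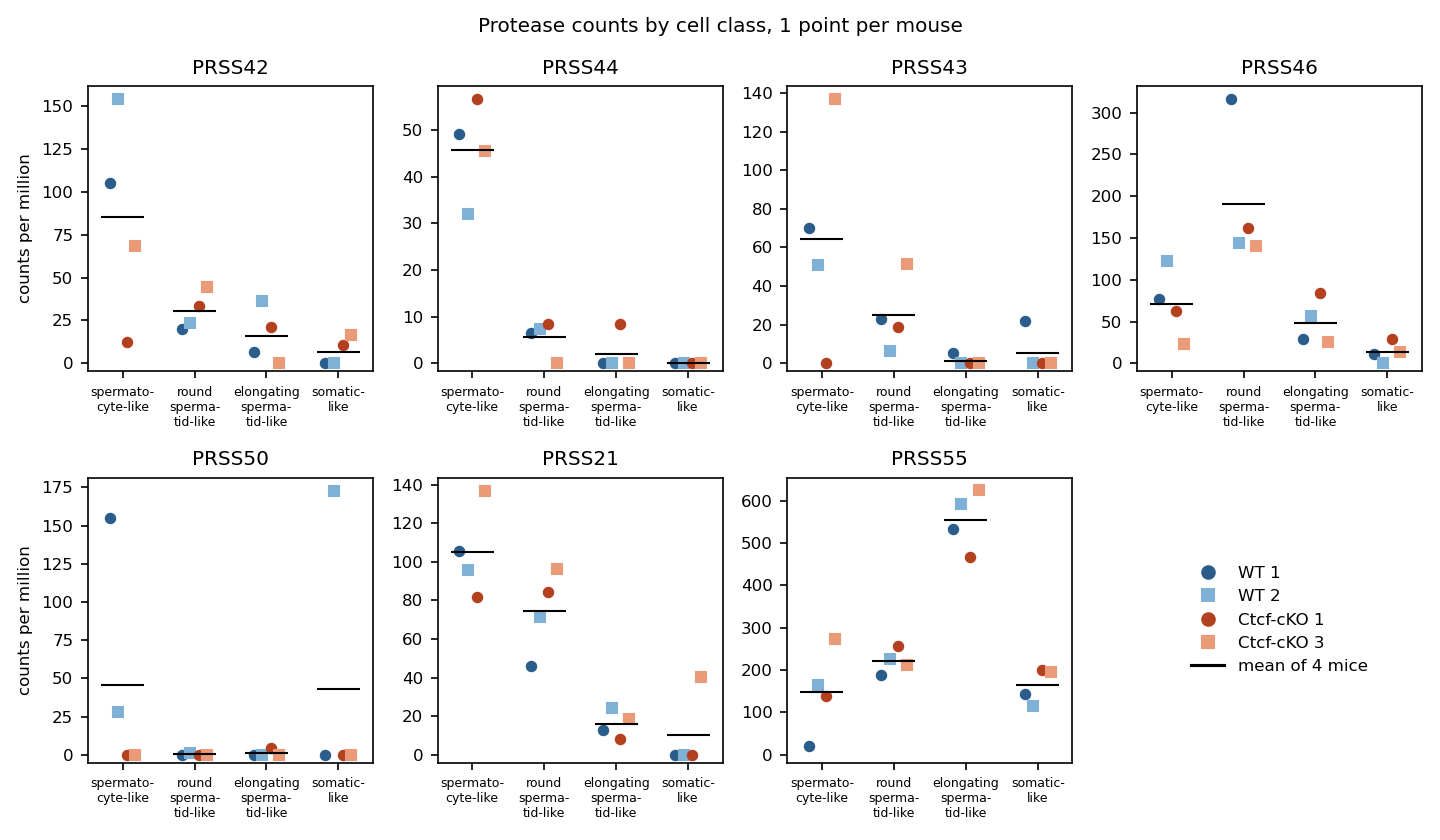
CPM of each protease by cell class (x axis), 1 point per mouse with the mean of 4 mice as a line (y axes differ between panels and include 0). PRSS44 is high in spermatocyte-like cells of all 4 mice, PRSS46 peaks in round spermatid-like cells and PRSS55 in elongating spermatid-like cells, while PRSS50 reads 0 in spermatocyte-like cells of both Ctcf-cKO mice.

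PRSS44 had the most even meiotic pattern, at 49.2 and 32.0 CPM in spermatocyte-like cells of the WT mice and 56.7 and 45.6 CPM in those of the Ctcf-cKO mice. In round spermatid-like cells it was at 6.585, 7.42, 8.42 and 0 CPM in the same order of mice, so that every mouse was higher in spermatocyte-like cells, by a mean of 40.3 ± 10.7 CPM (SD, n = 4 mice). It had no count in the somatic-like cells, which allows up to 8.04 to 86.4 CPM in a mouse. These levels rest on 35 counts in 13 spermatocyte-like cells. In Ctcf-cKO replicate 3 the spermatocyte-like class held 43857 and the round spermatid-like class 156225 counts of all genes. Its 45.6 and 0 CPM thus rest on very few counts.

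PRSS42 was at 105 and 154 CPM in spermatocyte-like cells of the WT mice and at 12.6 and 68.4 CPM in those of the Ctcf-cKO mice. Round spermatid-like cells held 19.8 and 23.4 CPM in WT and 33.7 and 44.8 CPM in Ctcf-cKO, and somatic-like cells 0 and 0 against 10.7 and 16.8 CPM. Spermatocyte-like cells were higher than round spermatid-like cells in 3 of 4 mice, and the difference of 54.7 ± 67.0 CPM (SD, n = 4 mice) did not exceed its spread. The Ctcf-cKO spermatocyte-like values rest on 2 and 3 counts.

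PRSS43, the neighbour of PRSS44, was at 70.3 and 50.8 CPM in WT spermatocyte-like cells and at 0 and 137 CPM in those of Ctcf-cKO replicates 1 and 3. Its Ctcf-cKO mice thus lay on both sides of the WT mice. The 137 CPM rests on 6 counts in 2 cells, and 0 counts in Ctcf-cKO replicate 1 allow up to 18.9 CPM. Round spermatid-like cells held 23.1, 6.28, 19.0 and 51.2 CPM in the same order of mice, and elongating spermatid-like cells 4 counts in all. Spermatocyte-like cells were above round spermatid-like cells in 3 of 4 mice, by 39.6 ± 43.3 CPM (SD, n = 4 mice), which did not exceed its spread. The step from round to elongating spermatid-like cells was down in 4 of 4 mice, by 23.6 ± 19.3 CPM (SD). All 4 elongating spermatid-like counts came from WT replicate 1. In WT replicate 2, 0 counts allow up to 12.2 CPM, above the 6.28 CPM of its round spermatid-like cells, so a fall was not resolved there.

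PRSS50 was read in spermatocyte-like cells of the WT mice, with 22 and 15 counts (155 and 28.2 CPM) from 4 and 5 cells. None was read in the 17 and 12 spermatocyte-like cells of the Ctcf-cKO mice. Pooled over mice, WT spermatocyte-like cells stood at 54.9 CPM, and 3 counts over the Ctcf-cKO group would give 14.8 CPM, 3.71-fold lower. Non-zero entries had a mean value of 4.05 and 3.40 in the Ctcf-cKO libraries. Counts are thus not single molecules, and the 3.71-fold ratio is no lower bound. This ratio has no test, since the gene had too few counts for the fit. The ratio was 1.91-fold without WT replicate 1, 10.4-fold without WT replicate 2 and 2.91-fold without Ctcf-cKO replicate 3. Without Ctcf-cKO replicate 1, 3 counts in the remaining mouse would be 68.4 CPM, above the pooled WT level. Spermatocyte-like cells were above elongating spermatid-like cells, the next class by mean, in 2 of 4 mice, by 44.7 ± 74.7 CPM (SD, n = 4 mice), a difference within its spread. In WT replicate 2, 6 further counts came from 1 somatic-like cell.

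PRSS21 was at 105 and 95.9 CPM in spermatocyte-like cells of WT and at 81.9 and 137 CPM in those of Ctcf-cKO. In round spermatid-like cells it was at 46.1 and 71.3 against 84.2 and 96.0 CPM, and in elongating spermatid-like cells at 12.8 and 24.4 against 8.39 and 18.7 CPM. The fall from round to elongating spermatid-like cells was seen in 4 of 4 mice, by 58.3 ± 21.8 CPM (SD). With each barcode counted once in place of its counts, an alternative chosen after seeing the data, its highest class became the round spermatid-like class.

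PRSS46 differed from its neighbours on the locus by a peak in round spermatid-like cells, at 316 and 144 CPM in WT and 162 and 141 CPM in Ctcf-cKO. Spermatocyte-like cells held 77.3 and 122 against 63.0 and 22.8 CPM, and elongating spermatid-like cells 29.5 and 56.9 against 83.9 and 24.98 CPM. Round spermatid-like cells were the highest class in 4 of 4 mice, above spermatocyte-like cells by 119.5 ± 89.6 CPM (SD). The order of the lower pair of classes did not exceed its spread.

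PRSS55 was the late member, at 532 and 593 CPM in elongating spermatid-like cells of WT and 466 and 625 CPM in those of Ctcf-cKO. Round spermatid-like cells held 188 and 227 against 257 and 211 CPM, lower in 4 of 4 mice by 333 ± 87.6 CPM (SD). Spermatocyte-like cells held 21.1 and 164 against 139 and 274 CPM. Somatic-like cells, which should lack the gene, held 144 and 115 CPM in WT and 201 and 195 CPM in Ctcf-cKO, and spermatocyte-like cells were above this background in 2 of 4 mice (WT replicate 2 and Ctcf-cKO replicate 3).

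Within the classes no member passed the test between genotypes with edgeR or DESeq2, and none had an edgeR unadjusted p under 0.05. Of 5 members tested in spermatocyte-like cells the lowest unadjusted p was 0.0782, for PRSS42 (log2 fold change -2.12, SE 1.047, edgeR adjusted p = 0.674), where 0.584% of 3767 genes were called. PRSS46 stood there at -1.03, PRSS43 at -0.30, PRSS21 at 0.04 and PRSS55 at 0.90 (edgeR adjusted p = 0.916 to 0.993). In round spermatid-like cells, where 0.0296% of 6751 genes were called, the 5 members tested had edgeR adjusted p from 0.917 to 0.993. PRSS46 was at -0.60 (95% interval -1.58 to 0.38), PRSS55 at 0.10 (-0.78 to 0.99) and PRSS21 at 0.49 (-0.70 to 1.67), and PRSS42 and PRSS43 were at 0.73 and 1.20. In elongating spermatid-like cells, where 3.18% of 2920 genes were called, PRSS46 and PRSS55 could be tested, with 0.38 and -0.09 (edgeR adjusted p = 0.912 and 0.937).

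**Figure D5:**
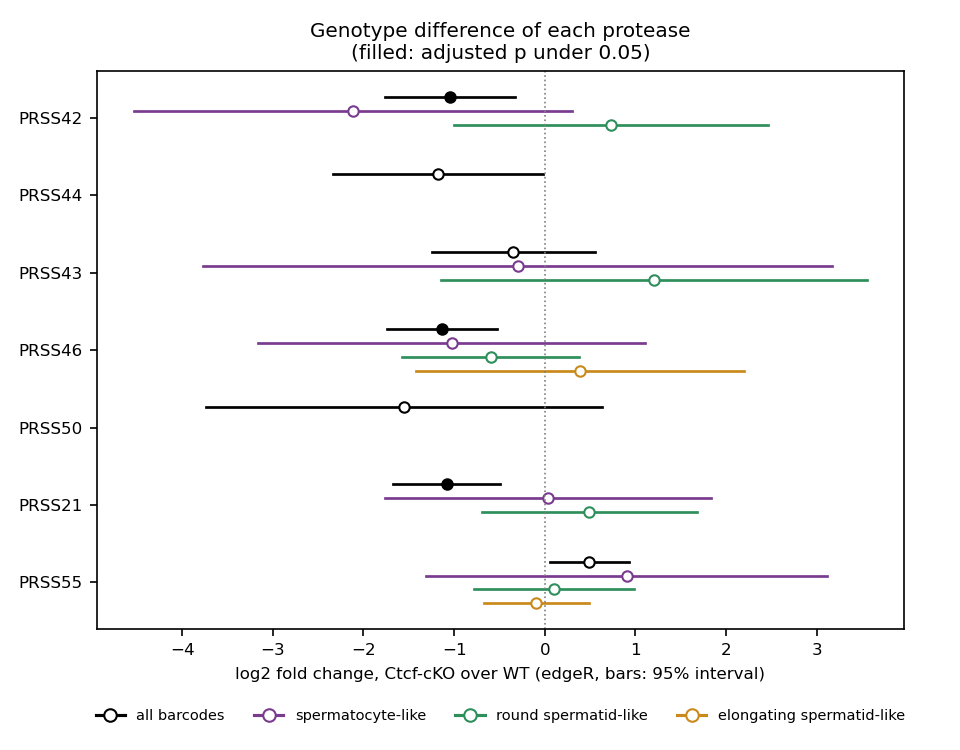
Log2 fold change of Ctcf-cKO over WT (x axis) for each protease in all barcodes and within each class that could be tested, with 95% intervals from edgeR and filled points at an adjusted p under 0.05. Only the sums over all barcodes of PRSS42 (-1.04), PRSS46 (-1.14) and PRSS21 (-1.08) are filled, and the intervals within spermatocyte-like and round spermatid-like cells are wider.

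The intervals within classes were wide. On simulated counts with the spread of these data, a log2 fold change of 2 was called for 12 of 200 changed genes in spermatocyte-like cells, 5 of 200 in round spermatid-like cells and 92 of 200 in elongating spermatid-like cells, against 148 of 200 in sums over all barcodes. At a log2 fold change of 1, near the size seen for PRSS42, PRSS46 and PRSS21, 5 of 200 were called in the sums and 0 in each class. The simulated sums held 200 changed genes of 14552, while 4150 of 14552 were called in the data. The adjustment was thus stricter in the simulated sums, and their shares do not give the share of changes found in the real sums. PRSS42 was lower in both Ctcf-cKO mice than in both WT mice in spermatocyte-like cells and higher in round spermatid-like cells. The test of whether the genotype difference varied by class did not pass for it (edgeR unadjusted p = 0.283, adjusted p = 1) or for any of the other 5 members tested, and 0.0149% of 6709 genes passed.

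The 5 genes whose levels over the 16 sums of mouse and class were most like the sum of the 5 locus members, among 8122 genes with at least 200 counts, were COQ4 (Pearson r = 0.94), GM10297 (0.94), SLC6A21 (0.92), SPATA1 (0.92) and GALNT3 (0.92). COQ4 takes part in coenzyme Q synthesis and GALNT3 starts O-linked glycosylation. The points share libraries and depth, so r is a description. The sum weighs its members by their counts. PRSS46 gave 87 of its 304 counts in spermatocyte-like, 544 of 685 in round spermatid-like and 61 of 87 in elongating spermatid-like cells. PRSS21 followed this sum at r = 0.71, PRSS45 at 0.60 and PRSS55 at -0.49. Of the 5 genes, SLC6A21, SPATA1, GALNT3 and GM10297 were lower in Ctcf-cKO over all barcodes (log2 fold changes -0.98, -0.92, -1.12 and -2.16, edgeR adjusted p = 0.00303, 0.00764, 0.0026 and 0.00383), and COQ4 was at -0.60 (adjusted p = 0.0851). Of all genes tested, 10.1% were called lower. The 5 genes were chosen over sums of both genotypes, so a lower level shared with the locus is partly set by that choice.

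Other genes of the proteases' pathway were read from 4 lists in the same fit, in which 10.1% of all genes were called lower, 18.4% higher and 28.5% in either direction. Among 19 tested of 26 other trypsin-like proteases of testis and sperm, 3 were lower and 3 higher in Ctcf-cKO, close to the share of all genes called, with a median log2 fold change of -0.17. ACR, the acrosomal protease acrosin, was lower (-1.07, edgeR adjusted p = 0.0020), as was PRSS41 (71, 54, 6 and 2 counts, -2.48, adjusted p = 0.0200). The 3 that were higher were the kallikreins KLK1B21, KLK1B24 and KLK1B27, near-identical copies whose reads can be split, with means of 144, 105 and 22.4 CPM in somatic-like cells and of 43.3, 25.2 and 29.7 CPM in spermatocyte-like cells. Within the classes KLK1B21 was the 1 gene of this list called, in spermatocyte-like cells with DESeq2 and not with edgeR (0 and 0 counts in WT, 13 and 4 in Ctcf-cKO). DESeq2 called 89 of 3767 genes there, and the part of free RNA in these counts was not tested. PRSS39 (-0.21, adjusted p = 0.417) and PRSS37 (0.38, adjusted p = 0.223) had the most counts together with ACR.

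The list closest to the role of PRSS55 and PRSS37 held genes for ADAM3 maturation and sperm migration. Of 21 tested, 9 were lower, where 10.1% of all genes were, and none was higher, where 18.4% were, with a median of -0.51 against -0.04 over all genes. Within the spermatocyte-, round spermatid- and elongating spermatid-like classes none of 14, 19 and 15 tested passed with edgeR or DESeq2 (0, 1 and 1 at an edgeR unadjusted p under 0.05). The round spermatid markers moved with the list in the sums (21 of 26 lower, median -0.84), and their part in it was not tested. ADAM2, the partner of ADAM1B in fertilin, was at -1.44 (edgeR adjusted p = 0.000353), ADAM1B at -1.07 (0.00970), TMEM95 at -1.41 (0.0199) and ADAM3 itself at -0.74 (0.0141).

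Of 12 protease inhibitors tested, 3 were lower and 4 higher (median 0.32), against 10.1% and 18.4% of all genes. SPINK2, the acrosin inhibitor of the acrosome, was lower (-1.30, edgeR adjusted p = 0.000242), and SERPINA5, a serpin with a mean of 207 CPM in somatic-like cells, was higher (4.11, adjusted p = 3.87e-06). EPPIN (2.32, adjusted p = 0.000901), WFDC10 (2.93, 0.0015) and SPINT3 (3.77, 0.0457) were higher too. Somatic markers moved with these inhibitors (15 of 15 Sertoli cell markers higher, median 3.37, and 12 of 13 Leydig cell markers, median 4.18), and their part was not tested. Within the classes SERPINA5 was the 1 inhibitor called. In elongating spermatid-like cells it passed with edgeR and DESeq2 (0 and 0 counts in WT, 13 and 9 in Ctcf-cKO, edgeR adjusted p = 0.0457, of 7 tested). There edgeR called 93 and DESeq2 120 of 2920 genes. In spermatocyte-like cells it passed with DESeq2 (0 and 1 against 23 and 4 counts, of 8 tested), which called 89 of 3767 genes. Over all barcodes SERPINA5 stood at 6.57 and 5.35 CPM in WT and 101 and 97.9 CPM in Ctcf-cKO. The part of free RNA in its class counts was not tested. PEBP1 and CST8 were at 0.19 and 0.30 (adjusted p = 0.494 and 0.223).

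Of 20 genes tested that build the GPI anchor carried by PRSS21 and PRSS55, 3 were lower and 3 higher (median 0.15), close to the 28.5% of all genes called in either direction. PIGG (-2.06), PIGO (-1.21) and PIGF (-0.89) were lower, at edgeR adjusted p of 0.0190, 0.0381 and 0.0108. PIGQ (2.15), GPAA1 (1.38) and PGAP2 (0.72) were higher, at 0.0295, 0.0477 and 0.0259.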

How the data were processed

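Single cell RNA was measured in 2 WT and 2 Ctcf-cKO testes. Reads had been aligned by the authors to GRCm38, and the deposited tables give raw whole-number counts for each gene symbol in each barcode. The authors cite earlier procedures, run with default parameters, for the counting. The sources used here do not name the counting program or how molecules were merged. Exactly 4 was the value of 11.5% of non-zero WT entries, and of 30.0% and 23.1% in Ctcf-cKO, so counts need not be single molecules. Floors (3 counts) cover counting error only, while the 95% intervals come from the fit over mice. Members, marker lists and gene lists were chosen with earlier results of these data known.

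Counts were summed over all barcodes, or per mouse and class, and tested with edgeR 4.0.16 (TMM, filterByExpr, quasi-likelihood, Benjamini-Hochberg over all genes tested). Cells had 200 to 7000 genes, at most 10% mitochondrial counts and a total of 3 or more times the count on the low plateau of their library's rank curve. They numbered 97, 255, 242 and 268, with median counts of 15039, 7954, 4507 and 2161. Seurat 5.3.0 was used with 2000 variable genes, 15 components, Harmony (written anew) and resolution 0.9. Clusters were named when at least 3 markers of 1 list were higher and the next list had under 0.5 times as many. A cluster stayed unnamed if its top 10 genes by fold held more markers of other lists than of its own. No doublets were called. Gene positions came from GENCODE (GRCm38). Tests were checked on simulated data. The members were named in every comparison, as were the 5 genes most like the locus. Other genes were taken, per list, from up to 4 called genes by size of change and the 3 with most counts. For the list of ADAM3 maturation and that of the GPI anchor, only some of the genes so chosen are given. The study tested single cells. Here the mouse was the replicate. Alternatives covered scaling, tool, filters, barcodes, clustering and leaving out each mouse.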

Additional observations from a re-analysis of the deposited data

How the results depend on the processing

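No paired analysis was possible because the groups compared share fewer than 2 replicate numbers. PRSS42, PRSS44, PRSS46, PRSS50 and PRSS21 were negative, and PRSS55 positive, in sums over all barcodes under every alternative that gave a value. The number of members called was 3 as reported, 1 in barcodes with 200 to 7000 genes, 0 in barcodes under 200 genes and 0 to 3 without 1 mouse (0 without either Ctcf-cKO replicate). PRSS42 lost its call with the DESeq2 Wald test (-1.05, adjusted p = 0.0514), in barcodes with 200 to 7000 genes (-1.04), in barcodes under 200 genes (-0.89), and in 2 alternatives chosen after seeing the data, counts divided by 4 and rounded up (-0.91) and each barcode counted once (-0.77). In barcodes under 200 genes PRSS46 (-1.13) and PRSS21 (-1.29) also lost theirs, PRSS21 lost its call in barcodes with 200 to 7000 genes (-0.80), and PRSS43 reversed to 1.43. PRSS55 gained a call with counts divided by 4 (0.65, adjusted p = 0.0421) and without WT replicate 2 (0.65, adjusted p = 0.00465). The cause was not tested.

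Leaving out 1 mouse, with the lone mouse of a genotype assumed to vary like the other group, gave -1.32 to -0.79 for PRSS42, -1.51 to -0.71 for PRSS46, -1.22 to -0.99 for PRSS21, -0.84 to 0.041 for PRSS43 and 0.29 to 0.65 for PRSS55. It gave -1.63 to -0.91 for PRSS44 and, leaving out each of 3 mice, -1.89 to -0.77 for PRSS50. In spermatocyte-like cells it gave -3.22 to -1.28 for PRSS42, -2.48 to -0.57 for PRSS46, 0.089 to 3.17 for PRSS55, -0.14 to 0.13 for PRSS21 and, leaving out each of 3 mice, -0.33 to 0.89 for PRSS43 (in both cases the fourth fit would leave a Ctcf-cKO library with 0 counts alone and was not computed, so the lower end is open), in round spermatid-like cells 0.45 to 0.99 for PRSS42, 0.45 to 2.11 for PRSS43, -0.999 to -0.18 for PRSS46, 0.061 to 0.99 for PRSS21 and -0.24 to 0.38 for PRSS55, and in elongating spermatid-like cells -0.80 to 0.93 for PRSS46 and -0.37 to 0.067 for PRSS55. Uncalled values also changed sign within classes: PRSS21 to -0.19 (spermatocyte-like) and PRSS55 to -0.073 (round spermatid-like) with no filter on low genes, PRSS42 in round spermatid-like cells to -0.33 with the number of barcodes the study states and to -0.029 at resolution 0.5, and, with each barcode counted once, PRSS46 to 0.11 and PRSS21 to -0.30 in round spermatid-like and PRSS55 to 0.057 in elongating spermatid-like cells. Without correction between libraries no cluster could be named spermatocyte-like, and at resolution 0.5 none could be named elongating spermatid-like. Those values, and the stage order, were thus not obtained. At resolution 0.5, cluster 0 (290 cells) matched 20 markers of elongating spermatids against 2 of Sertoli cells. It stayed unnamed because its top 10 genes by fold held 1 marker of other lists and 0 of its own. PRSS50 had at most 31 and PRSS44 at most 82 counts in a library, and the part of depth in their missing calls was not tested.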

Other observations

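In the 202 cells of unnamed clusters the level of PRSS55 was 92.1 and 324 CPM in WT and 260 and 309 CPM in Ctcf-cKO. PRSS46 was there at 24.6, 31.4, 15.3 and 23.3 CPM in the same order. PRSS50 was at 52.3 CPM in those of WT replicate 2 (5 counts), above the 28.2 CPM in its spermatocyte-like cells. PRSS43 was at 46.6 CPM in those of Ctcf-cKO replicate 3 (8 counts). Unnamed cluster 2 (121 cells) matched 13 markers of elongating spermatids and 9 of Sertoli cells.

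Of the 70 spermatocyte-like cells, 41 had a count of at least 1 of the 5 locus members, and 23 of them had counts of 2 or more of these genes. In round spermatid-like cells these were 123 and 28 of 269 cells, and in elongating spermatid-like cells 28 and 3 of 137. The classes were not compared.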
